A study of Drosophila melanogaster with 2 samples.

Results

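The genes described here are 59 regulators of the body axes and germ layers of the Drosophila embryo, out of 13968 annotated protein-coding genes, and the measurement is where the zinc finger protein Wings down (Wdn) was found by chromatin immunoprecipitation with sequencing (ChIP-seq) around them. They were taken by name and sorted by role. The Hox genes were lab, pb, Dfd, Scr, Antp, Ubx, abd-A and Abd-B. The maternal, gap and terminal genes were bcd, cad, hb, Kr, kni, gt, tll and hkb. The pair-rule genes were eve, ftz, h, run, odd, prd, slp1, slp2 and opa, and the segment polarity genes en, inv, wg, hh, gsb, ptc, ci and nkd. The dorsoventral genes were dl, twi, sna, sog, rho, brk, zen, dpp, ind, vnd, wntD, tld and scw. The germ layer and tissue genes were tin, bap, Mef2, srp, pnr, Doc1, Doc2, Doc3, tup, htl, NetA, fkh and GATAe. Of the 3254 peaks in the list made from both replicates, called the main list below, 37 had their summit in or near these genes.

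The embryos were whole animals 0 to 24 hours old from flies carrying a transgene for Wdn fused to eGFP, and the fusion was precipitated with an antibody against GFP. There was 1 group with 2 biological replicates, and no control library was analysed here. Chromatin had been sheared by sonication to a range of 200 to 800, with no unit given. Such an age range pools every stage from the syncytial embryo to the late embryo, so a peak cannot be assigned to a stage or to a cell type.

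Drosophila embryos are patterned by a cascade of transcription factors and secreted signals. Maternal gradients set up broad gap domains, which drive pair-rule stripes and then segment polarity stripes, while the Hox genes give each segment its identity. Across the other axis, a nuclear gradient of Dorsal and a gradient of the BMP ligand Dpp divide the embryo into mesoderm, neural ectoderm, dorsal ectoderm and amnioserosa, and tissue selectors such as tin and fkh then direct the heart and the gut. Many of these genes are flanked by long stretches of enhancer DNA and are covered by Polycomb proteins where they are silent.

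The windows below are the dm6 reference sequence, as held by RefSeq, of 50 bp on either side of a main-list summit. They show the DNA under 6 of the 8 promoter summits described here and under 2 strong flank summits. They are read along the strand of the gene, and capitals mark runs of at least 6 bases made only of A and T. Of these windows, 6 lie within 500 bp of a start (nkd, tin, fkh, hb, bcd and brk) and 2 lie outside the gene (tup and slp2). Their positions are chr3L:19045537-19045637 (minus strand) for nkd, chr3R:21378746-21378846 (plus) for tin, chr3R:28585462-28585562 (minus) for fkh, chr3R:8694205-8694305 (minus) for hb, chr3R:6759547-6759647 (minus) for bcd, chrX:7307428-7307528 (plus) for brk, chr2L:18857706-18857806 (minus) for tup and chr2L:3832428-3832528 (plus) for slp2.
nkd: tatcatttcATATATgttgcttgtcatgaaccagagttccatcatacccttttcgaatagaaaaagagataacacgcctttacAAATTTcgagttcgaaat
tin: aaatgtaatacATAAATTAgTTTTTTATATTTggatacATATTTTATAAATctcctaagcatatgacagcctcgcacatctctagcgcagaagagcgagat
fkh: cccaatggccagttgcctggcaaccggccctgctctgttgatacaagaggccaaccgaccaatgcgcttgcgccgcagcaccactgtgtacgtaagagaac
hb: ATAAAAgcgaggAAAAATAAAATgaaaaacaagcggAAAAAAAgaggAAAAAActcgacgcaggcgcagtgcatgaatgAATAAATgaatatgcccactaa
bcd: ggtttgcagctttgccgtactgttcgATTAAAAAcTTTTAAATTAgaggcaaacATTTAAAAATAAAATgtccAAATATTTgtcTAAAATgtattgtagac
brk: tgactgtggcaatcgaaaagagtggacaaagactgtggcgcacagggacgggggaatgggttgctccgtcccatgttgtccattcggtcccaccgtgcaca
tup: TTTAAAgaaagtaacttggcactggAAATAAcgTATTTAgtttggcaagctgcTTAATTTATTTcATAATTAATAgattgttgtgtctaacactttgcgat
slp2: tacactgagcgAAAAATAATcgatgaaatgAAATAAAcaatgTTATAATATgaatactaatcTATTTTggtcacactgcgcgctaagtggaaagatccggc
The windows were of mixed composition. The bcd window held 5 A/T runs, the longest of 15 bases, and 71.3% A and T. The tin window held 3 runs, the longest of 13 bases, and the hb and tup windows each held 5, the longest of 11 bases in both. The windows of fkh and brk held none, with 40.6% and 42.6% A and T.

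Listed Wdn-eGFP summits near the starts of patterning genes were about as common as near the starts of protein-coding genes in general. The irreproducible discovery rate (IDR) sets the rank of each peak in one data set against its rank in another. It is low where a peak ranks consistently high in both, and every main-list peak had an IDR of at most 0.01. With 500 bp on either side of an annotated start counted as the promoter zone, 8 of the 59 members (13.6%) held a main-list summit there, beside 14.9% of all protein-coding genes. Elsewhere in the gene body, 8 members (13.6%) held one, beside 6.29% of all protein-coding genes. The members are the longer genes, with a median of 6652 bp against 2164.5 bp over all protein-coding genes. Within 5 kb outside the gene, 13 members (22.0%) did, beside 28.2%. In any of these 3 zones, 20 members (33.9%) had a main-list summit, beside 40.1% of all genes. The other 39 members had none, and no test was made of any of these counts.

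The lists of the single replicates gave lower shares in the same zones. Replicate 1's own list placed a promoter summit at 5 members (8.47%), beside 9.61% of all genes. It placed a body summit at 5 members (8.47%), beside 4.19% of genes, a flank summit at 9 (15.3%), beside 18.8%, and a summit in any zone at 15 (25.4%), beside 28.3%. Replicate 2's own list had a promoter summit at 3 members (5.08%), beside 9.84% of all genes. It had a body summit at 4 (6.78%), beside 3.67%, a flank summit at 7 (11.9%), beside 18.6%, and a summit in any zone at 10 (16.9%), beside 28.3%. In the conservative list, a second list made from both replicates, 6 members (10.2%) had a promoter summit, beside 13.1% of all genes. The members called near a start in both replicates' own lists were nkd, tin and fkh, while ptc and hb were called in replicate 1's list only.

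**Figure D1:**
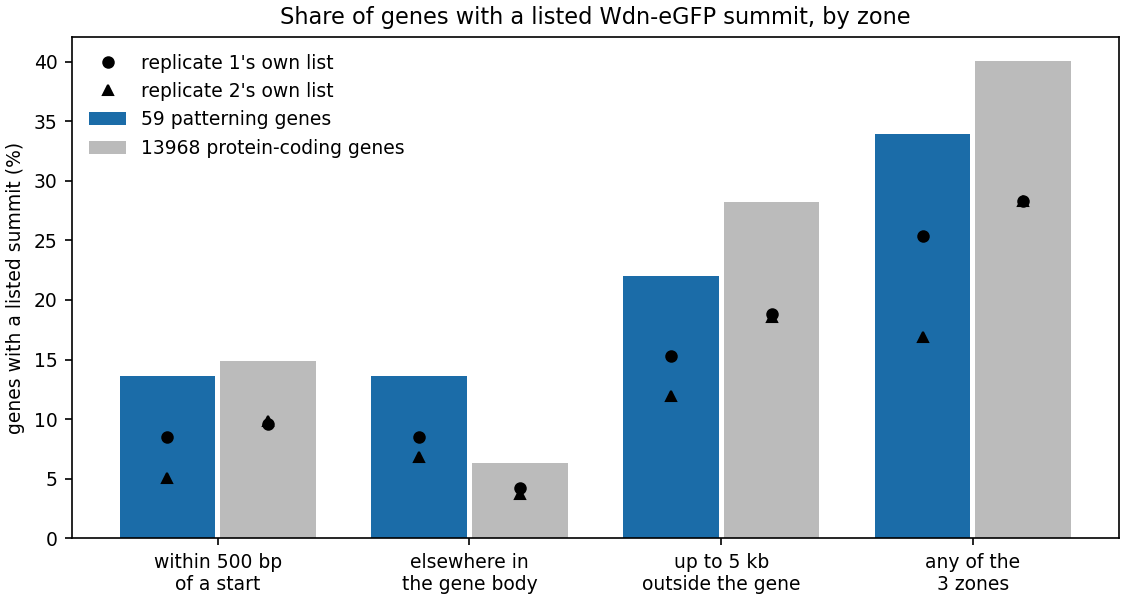
Share of genes (%) with a listed summit in each zone, for the 59 patterning genes (blue) and all 13968 protein-coding genes (grey); bars are the main list, circles replicate 1's own list and triangles replicate 2's own list. The members' bar is at 13.6% against 14.9% near starts and at 13.6% against 6.29% in gene bodies.

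Among the 8 segment polarity genes, nkd and ptc had summits near their starts, beside 14.9% of all protein-coding genes. The nkd gene encodes an antagonist of Wingless signalling that acts on Dishevelled. Its promoter peak (chr3L:19045435-19045738), with the summit 138 bp upstream of the start, had a signal of 139, the highest of the 8 promoter peaks and rank 591 in the main list. The signal value is the authors' own for each peak, with no stated reference. It ranks peaks within a list, and the replicates' signals are set side by side although their lists share no scale. The matching peaks in the replicates' own ranked lists had signals of 71.8 in replicate 1 and 63.7 in replicate 2, and both replicates' summits fell on the same base as the main summit. Patched, the receptor that binds Hedgehog, is encoded by ptc, whose peak (chr2R:8649343-8649646) had its summit 154 bp upstream. That peak had a signal of 78.7, with 46.0 in replicate 1 and 32.5 in replicate 2.

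The other segment polarity genes had no main-list summit in any zone, where 40.1% of all protein-coding genes had one. The Wnt ligand gene wg came nearest among them, with a ranked summit 169 bp upstream of a start at an IDR of 0.0190 and a signal of 22.4 in replicate 1 and 24.5 in replicate 2. The gene of the ligand Hedgehog, hh, had its best summit 2249 bp into the gene, at an IDR of 0.0272. The homeodomain gene en and its neighbour and paralogue inv had best IDRs of 0.0477 and 0.0419, and the paired-domain gene gsb one of 0.111. For ci, the transcription factor of the Hedgehog pathway on chromosome 4, no peak was ranked in any zone. That chromosome held 171 ranked and 4 main-list peaks in all.

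Beyond its promoter, nkd held a pair of main-list summits deep in its introns. They lay 29045 and 27394 bp from the nkd start, and nearer to that of SmydA-2, 13152 and 14803 bp away. Their signals were 67.4 and 51.4. The stronger had 41.6 in replicate 1 and 24.6 in replicate 2, and the weaker 26.5 in replicate 1 and 30.6 in replicate 2, so the order of the replicates turned round between them. Neither summit was in a replicate's own list. Downstream of ptc there were summits of signal 92.7 and 62.2, at 4968 and 1962 bp beyond the gene, both lying inside the neighbouring gene Acsl. The nearest start of any gene was an Acsl start for both. The stronger summit was 532 bp upstream of it and the weaker 1014 bp downstream.

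The germ layer and tissue genes held 14 main-list summits, in the zones of 7 of the 13 genes, beside 40.1% of all protein-coding genes with a summit in any zone. The role groups hold between 8 and 13 genes, so their counts of summits are not on an equal footing. Near a start, the genes with a summit were tin, fkh and Mef2, beside 14.9% of all protein-coding genes. The homeodomain factor Tinman specifies the heart and dorsal mesoderm, and the tin peak (chr3R:21378644-21378947) had its summit 181 bp upstream of the start. It had a signal of 135, with 87.3 in replicate 1 and 47.3 in replicate 2, and the lowest IDR of the promoter peaks at 4.58e-05. Forkhead, a winged-helix factor of the gut and salivary glands, is encoded by fkh. The fkh summit (peak chr3R:28585360-28585663) was 248 bp upstream, with a signal of 101.3, replicate signals of 52.6 and 42.4 and a listed peak in both replicates.

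Mef2, which encodes the MADS-box factor of muscle differentiation, had 5 main-list summits in its zones, more than any other member. Its promoter summit lay in an intron, 451 bp upstream of an internal start, with a signal of 61.7 and replicate signals of 25.7 and 31.1. In the body, the summit 4971 bp upstream of the nearest Mef2 start had a signal of 118, and the summit 1781 bp downstream of a start had one of 109 and lay in an exon. A weaker summit 5366 bp downstream had a signal of 54.9. The 118 and 109 summits were listed in both replicates, with 66.4 and 48.4 in replicate 1 and 52.3 and 57.9 in replicate 2, and the other body summit in neither.

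The strongest summit beside any member was the fifth one of Mef2. It lay 1053 bp upstream of the gene with a signal of 489, rank 54 in the main list, with 233 in replicate 1 and 257 in replicate 2. The same summit was 167 bp upstream of the start of Pal1 and within 500 bp of a start of Pdrg1, so its position does not tie it to Mef2 alone.

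Strong summits near tin and tup also lay at other genes. Upstream of tin, a summit of signal 234 (129 in replicate 1 and 96.0 in replicate 2) lay 2548 bp from the tin start. It was inside the chromatin regulator gene mod(mdg4), 972 bp downstream of its nearest start. A weaker one of 53.0 lay 1583 bp upstream of tin and 7 bp from a start of mod(mdg4). The gene tup encodes a LIM-homeodomain factor of the dorsal embryo and heart, and the summit of signal 185 that lay 1751 bp beyond its end was 77 bp upstream of the start of CG10602. Its replicate signals were 95.9 and 87.7. Inside tup itself a summit 16924 bp from the start had a signal of 52.9, with 17.7 in replicate 1 and 42.4 in replicate 2. The nearest protein-coding start to that summit was the one of CG10602.

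Netrin-A, a secreted guidance cue, is encoded by NetA. An intronic summit 26196 bp from the start had a signal of 60.4, with 46.4 in replicate 1 and only 12.9 in replicate 2. The start of sbm was slightly nearer to it, 25058 bp away. A stronger summit of 94.4 lay 1286 bp beyond NetA and 146 bp upstream of the start of sbm. A summit of 89.4 was shared by the GATA factor genes srp and GATAe, 1326 bp beyond srp and 3694 bp upstream of GATAe. It also lay inside lncRNA:CR42839, whose start was the nearest of any gene, 2662 bp away. Replicate 1's own list held it and replicate 2's did not. Serpent acts in the endoderm, blood and fat body and GATAe in the endoderm.

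The 6 germ layer genes without a main-list summit had best IDRs between 0.0168 and 0.185, with a median of 0.0449. The T-box gene Doc2 came nearest, with a ranked summit 1569 bp upstream at an IDR of 0.0168. Its signal was 4.22 in the combined ranking, with 22.7 in replicate 1 and 22.2 in replicate 2. The visceral mesoderm homeobox gene bap had a summit 1400 bp upstream at an IDR of 0.0363, with 33.1 in replicate 1 and 10.2 in replicate 2. Doc1 and the GATA gene pnr had best IDRs of 0.0457 and 0.0440, and Doc3 and the FGF receptor gene htl had 0.185 and 0.137.

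**Figure D2:**
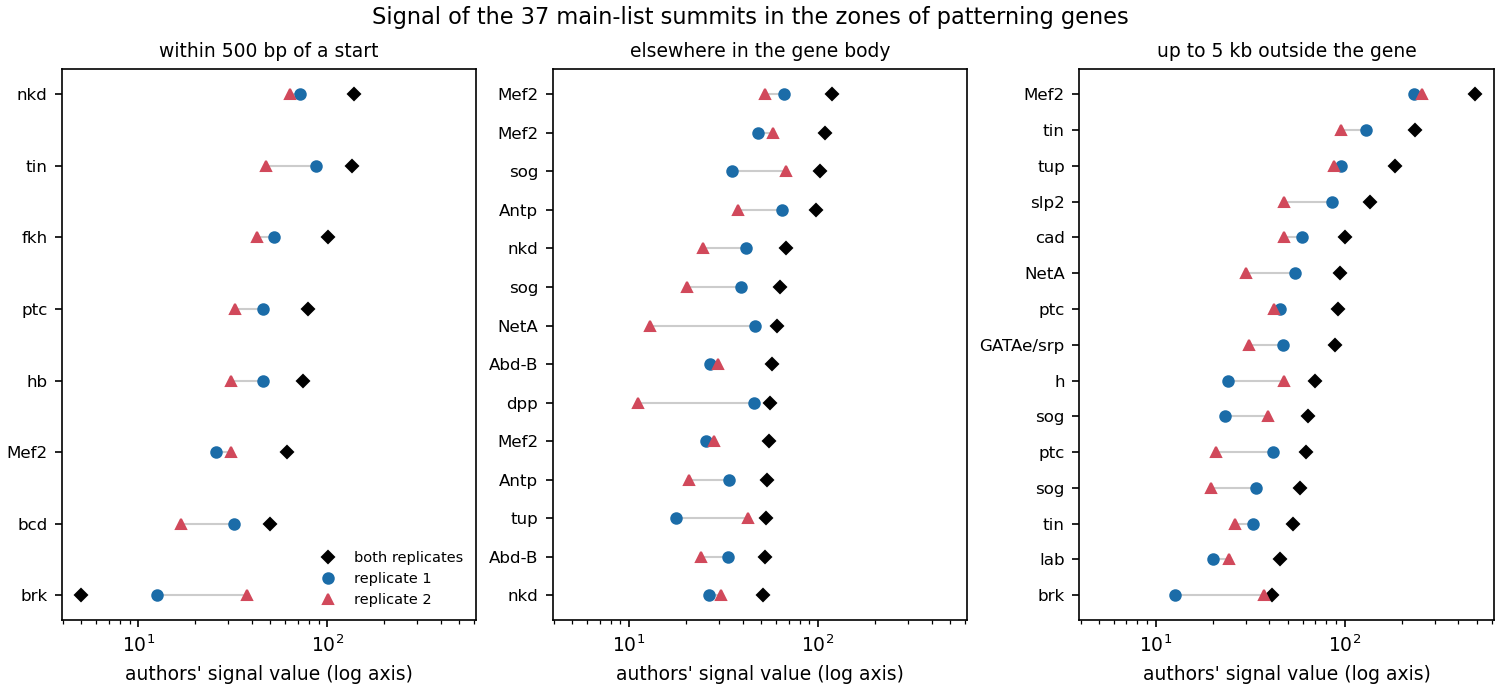
Authors' signal value (log axis) of each of the 37 main-list summits, by zone and in order of signal, in the ranking of both replicates (black diamonds) and for the overlapping peak in replicate 1's (blue circles) and replicate 2's (red triangles) own rankings. The signal of 489 upstream of Mef2 is the highest, and the value of 4.97 at brk is the lowest.

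Of the 8 maternal, gap and terminal genes, hb and bcd had promoter summits and cad had one in its flank. Over all protein-coding genes, 14.9% had a promoter summit and 40.1% one in any zone. The gap gene hb encodes a zinc finger factor of the anterior embryo. Its peak (chr3R:8694103-8694406) had the summit 345 bp downstream of a start, in an intron, with a signal of 74.3 and replicate signals of 45.7 and 30.9. The maternal homeodomain morphogen of the anterior pole is encoded by bcd, whose peak (chr3R:6759445-6759748) had the summit 131 bp upstream of the start. It was among the weakest of the main list, with a signal of 49.8 at rank 2914. Replicate 1 gave it 32.1 and replicate 2 gave it 16.9, neither replicate listed it on its own, and the conservative list did not hold it.

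The posterior homeodomain gene cad had a summit of signal 99.9, with 59.7 in replicate 1 and 47.5 in replicate 2. It lay 4281 bp beyond the end of cad and 240 bp upstream of the start of Pomp. The 5 remaining genes of the group had best IDRs of 0.233 to 0.513, the median being 0.377, which was the highest of the 6 role groups. The best were the nuclear receptor genes kni, with a summit 621 bp upstream at 0.233, and tll, with one at 0.316. The zinc finger genes Kr and hkb had 0.377 and 0.505, and the bZIP gene gt had 0.513.

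None of the 9 pair-rule genes had a main-list summit near a start or in the body, beside 14.9% and 6.29% of all protein-coding genes, shares at which so small a group can hold none. The 2 with a summit in the flank were slp2 and h, beside 28.2% of all protein-coding genes. The forkhead-domain gene slp2 had a summit 4362 bp upstream with a signal of 136 (85.6 in replicate 1 and 48.0 in replicate 2), listed in both replicates, and slp2 had the nearest start. The bHLH repressor gene h had a summit 3026 bp upstream with a signal of 70.0, higher in replicate 2 (47.5) than in replicate 1 (24.1). Near its start, h held a ranked summit 132 bp upstream with an IDR of 0.0107, just above the limit of 0.01.

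The best IDRs of the 7 other pair-rule genes were 0.143 to 0.462. The zinc finger genes odd and opa had 0.143 and 0.206, and the Runt-domain gene run had 0.213. The homeobox genes eve and ftz had 0.261 and 0.447, prd had 0.330 and slp1 had 0.462. Over the group, the median of the best −log10 IDR near a start was 0.0977 in 8 genes with a ranked summit there. Among segment polarity genes that median was 1.52 in 6 genes, among dorsoventral genes 0.520 in 11, among germ layer genes 0.439 in 13, among maternal, gap and terminal genes 0.161 in 8 and among Hox genes 0.160 in 8. These groups are small and the differences between them were not tested.

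**Figure D3:**
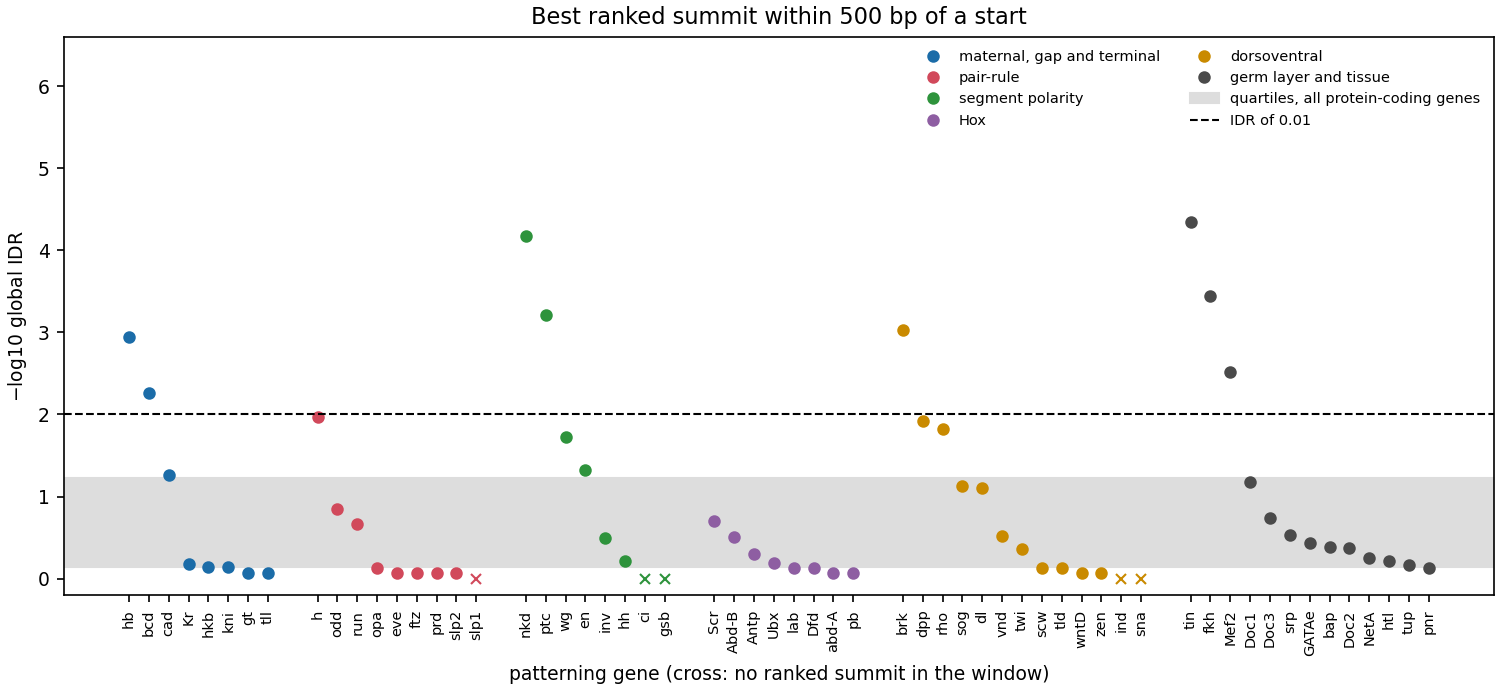
The −log10 global IDR of the best ranked summit within 500 bp of a start for each of the 59 members, coloured by role group, with crosses for the members that have none; the grey band spans the quartiles over protein-coding genes with such a summit (0.147 to 1.23) and the dashed line is an IDR of 0.01. The 8 members above the line are hb, bcd, nkd, ptc, brk, tin, fkh and Mef2.

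Of the 13 dorsoventral genes, 3 had a main-list summit in any zone (sog, brk and dpp), beside 40.1% of all protein-coding genes. The sog gene encodes a secreted antagonist of Dpp, and its 4 summits made it second among members after Mef2. The intronic summit 3481 bp downstream of the nearest sog start had a signal of 102, with 35.0 in replicate 1 and 67.4 in replicate 2. It was listed in both. The other intronic summit, 7060 bp downstream of the nearest sog start, had a signal of 63.0. That one was higher in replicate 1 (39.3) than in replicate 2 (20.3). Beyond the gene end there were summits of 57.9 at 616 bp and of 64.1 at 3410 bp, with no other gene's start within 500 bp.

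The BMP ligand gene dpp had an intronic summit 5244 bp from the start with a signal of 55.5. Replicate 1 gave it 45.7 and replicate 2 gave it 11.1, the widest ratio between the replicates at any member summit, 4.11. Near a start of dpp there was also a ranked summit, 483 bp downstream, at an IDR of 0.0121. The repressor of Dpp target genes is encoded by brk, whose promoter peak (chrX:7307326-7307629) had a signal of 4.97, rank 3235 of the main list, although its IDR was 0.000935. A neighbouring main-list peak with its summit 664 bp upstream had a signal of 41.2, and the 2 peaks overlapped. Both matched the same replicate peaks, of 12.6 in replicate 1 and 37.6 in replicate 2, and neither of these was in a replicate's own list. The promoter summit was 461 bp upstream of the brk start. The replicate summits were offset from it by -188 and -58 bp, which placed both outside the 500 bp window. In the main list 55 peaks had a signal under 10.

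The gene rho encodes an intramembrane protease that activates EGF ligands. It had the lowest IDR among the 39 members without a main-list summit, 0.0151, at a summit 30 bp downstream of a start, with 29.3 in replicate 1 and 14.2 in replicate 2. The NF-κB factor gene dl had a summit 82 bp upstream at 0.0776, which had an overlapping ranked peak in replicate 1 (27.7) and none in replicate 2. The mesoderm genes twi and sna had best IDRs of 0.0808 and 0.255. The protease gene tld had 0.151, the homeobox genes zen, vnd and ind had 0.236, 0.285 and 0.685, the Wnt family gene wntD had 0.364 and the BMP ligand gene scw had 0.434.

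None of the 8 Hox genes had a main-list summit within 500 bp of a start, beside 14.9% of all protein-coding genes, and all 8 had a ranked one there, beside 81.5%. At a share of 14.9% a group of 8 is too small for a count of 0 to stand apart. In the zones of 3 of the 8 Hox genes there were 5 main-list summits, and 40.1% of all protein-coding genes had a summit in any zone. Antp, which specifies thoracic segments, had intronic summits 20365 and 18328 bp downstream of the nearest Antp start. Both also lay inside the gene CG46458, and the nearest start of any gene was that of lncRNA:CR43252, 7793 and 9830 bp away. Their signals were 98.1 (64.9 in replicate 1 and 37.5 in replicate 2) and 53.5 (33.7 and 20.8 in the same order). Abd-B, the most posterior Hox gene, had summits of 56.8 and 52.4 at 4684 and 1509 bp upstream of its nearest starts, both in introns and in neither replicate's own list. Beyond the end of lab, the most anterior Hox gene, a summit of 45.2 lay 3826 bp away and 159 bp upstream of the start of CG1307.

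The other 5 Hox genes had ranked summits in their zones and none in the main list. Ubx had a summit 3102 bp upstream at an IDR of 0.0167, with 25.9 in replicate 1 and 21.4 in replicate 2, and Dfd had one 2363 bp upstream at 0.0486. The conservative list held a summit in the body of Ubx, 30022 bp from the start with a signal of 54.4 in that list, where the lowest IDR of an overlapping peak in the main ranking was 0.567. Scr and pb had best IDRs of 0.199 each and abd-A one of 0.367.

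The Hox genes lie in 2 clusters on the right arm of chromosome 3. From the start to the end of the Antennapedia complex (chr3R:6661427-6999228) there were 3 main-list summits, the bcd summit and the pair in Antp, or 0.888 per 100 kb. Over the bithorax complex (chr3R:16656623-16972236) there were 4, or 1.27 per 100 kb. All 7 chromosome arms together (X, 2L, 2R, 3L, 3R, 4 and Y) had 2.36 per 100 kb. The densities of the 2 complexes rest on 3 and 4 summits and were not tested. Shorter clusters of members held 1 or 0 main-list summits each, from 0 per 100 kb at inv and en to 7.40 per 100 kb at the slp genes. The density of ranked summits was 97.99 per 100 kb in the Antennapedia complex, 106 per 100 kb in the bithorax complex and 94.9 per 100 kb over all chromosomes. The strongest summit of the bithorax complex lay outside the zones of the Hox genes and had a signal of 114, with 61.1 in replicate 1 and 54.0 in replicate 2.

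**Figure D4:**
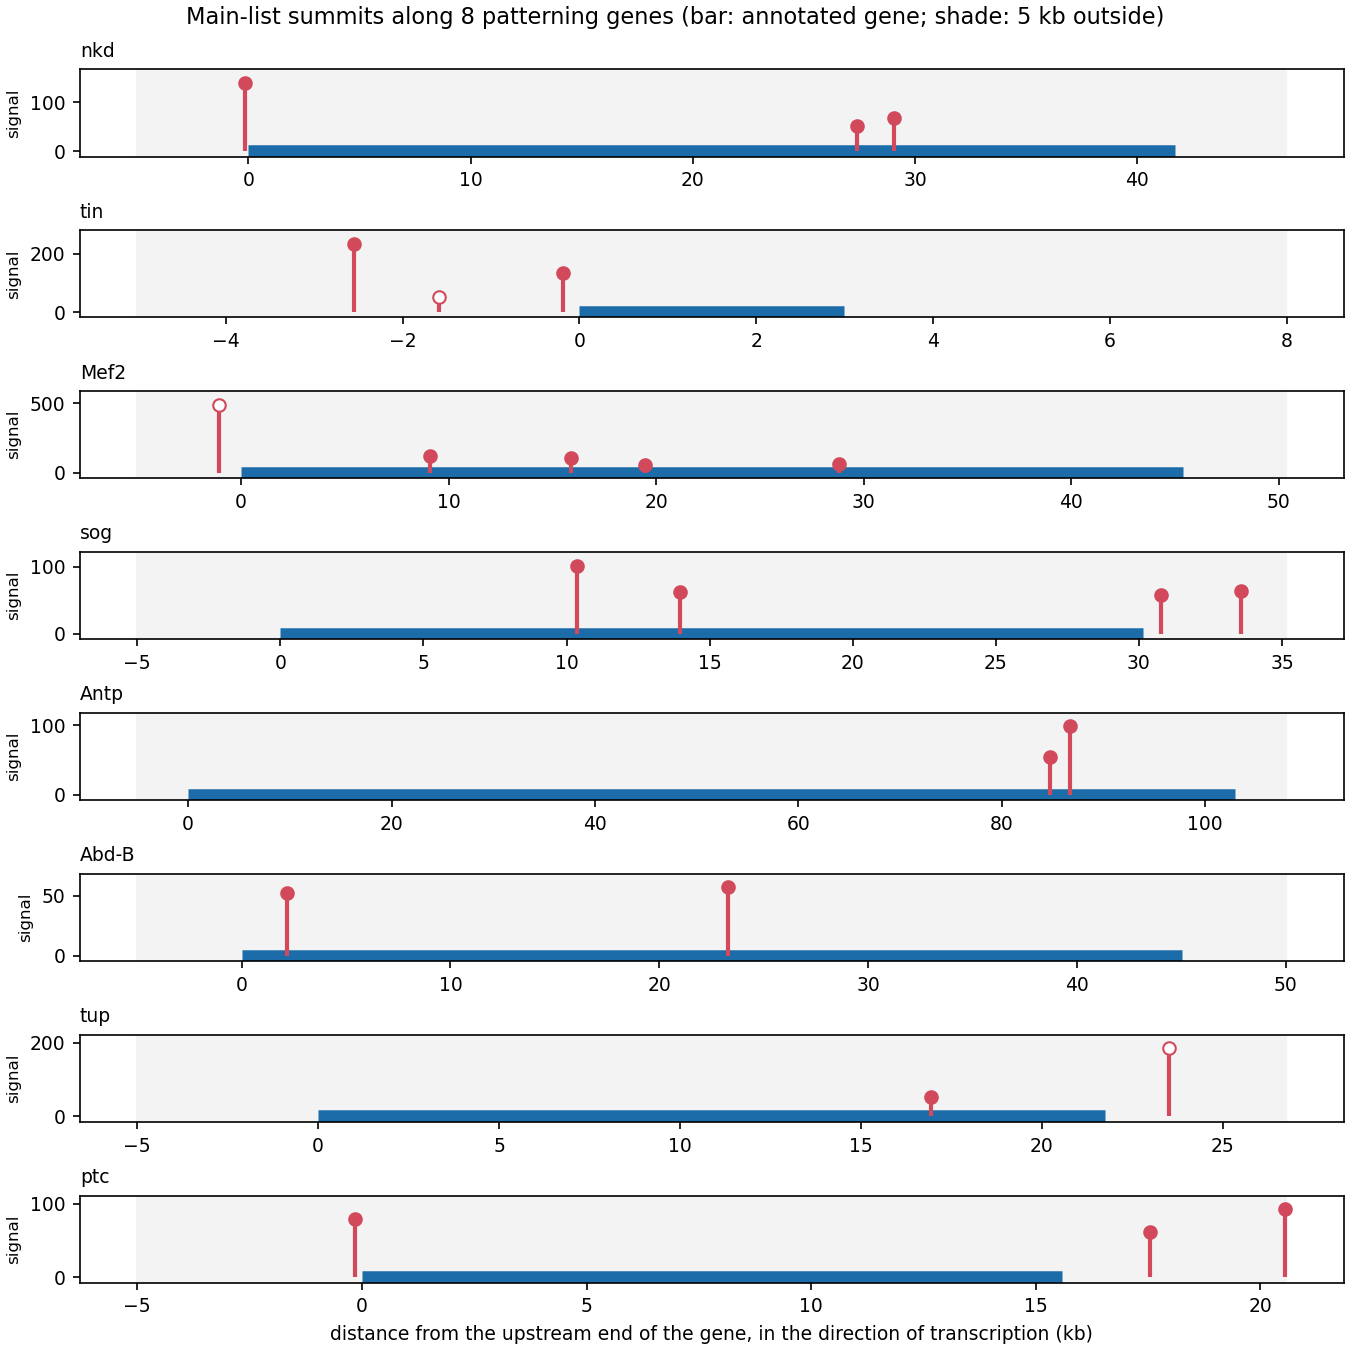
Main-list summits (stems, height is the authors' signal value) along 8 patterning genes, in kb from the upstream end of the gene in the direction of transcription; the bar is the annotated gene, the shade reaches 5 kb outside it, and open heads mark summits within 500 bp of another gene's start. The signal axis differs between panels, and the open heads are at tin, Mef2 and tup.

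By zone, the main-list summits of the members fell as 8 near starts, 14 in gene bodies and 16 in flanks, with the srp and GATAe summit counted for both genes. Of the 8 near starts, 7 were upstream and none was within 500 bp of another gene's start. Of the 14 in bodies, 13 were in introns and none was near another start, and for 10 the member had the nearest protein-coding start. The exceptions were the nkd pair and the body summits of NetA and tup. In the flanks, 6 of 16 were within 500 bp of another gene's start, and for 4 the member had the nearest protein-coding start. With summits near another start left out, an alternative chosen after seeing the data, 8 members in place of 13 had a flank summit.

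Most members with a body summit were over 30 kb long, but not every member of that length had one. In length classes whose edges were chosen after seeing the data, 7 of 11 members over 30 kb had a body summit, beside 39.7% of 670 genes. From 10 to 30 kb it was 1 of 14 members, beside 25.9% of genes. From 3 to 10 kb it was 0 of 16, beside 6.40%, and up to 3 kb 0 of 18, beside 0.683%. Per 100 kb of gene length, members had 1.54 main-list body summits and all protein-coding genes 1.41. For ranked summits the densities were 107 in members and 90.3 in all protein-coding genes.

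**Figure D5:**
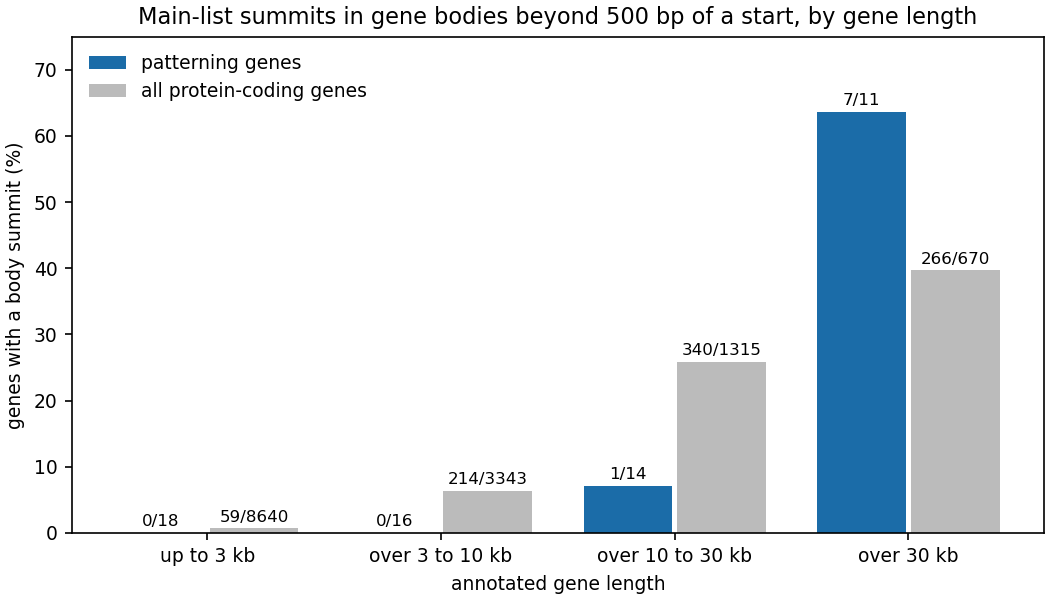
Share of genes (%) with a main-list summit in the body, beyond 500 bp of a start, by annotated gene length, for patterning genes (blue) and all protein-coding genes (grey), with the counts above each bar. In the class over 30 kb, 7 of 11 members had one, beside 39.7% of all genes.

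The members' peaks were of middling strength within the main list. The median signal of the 37 summits was 67.4 (quartiles 54.9 and 101.3), against 76.6 (58.2 and 117) over all 3254 peaks, and 16 of the 37 were above that overall median. For the strongest summit per gene, the median was 76.5 near the starts of 8 members against 87.6 over 2087 genes. It was 63.9 in the bodies of members against 82.4 in those of all genes, and 92.7 in their flanks against 88.0.

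Support from the single replicates was uneven. Of the 37 summits, 12 (32.4%) overlapped listed peaks of both replicates, against 39.1% of the main list, and 13 (35.1%) overlapped none, against 29.0%. Another 9 overlapped a listed peak of replicate 1 alone and 3 one of replicate 2 alone. Replicate 1's signal was the higher at 24 of the 37, with a median ratio to replicate 2 of 1.26 and a range of 0.335 to 4.11. Over all main-list peaks the median ratio was 1.05. The replicates' signals are not on a shared scale, so these ratios do not measure a difference in binding. The replicates' lists hold 1996 and 1796 peaks, and the part of list length or depth in the uneven support was not tested. The peak lists carry no read counts, so the depth of the libraries is unknown here.

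Around starts, a ranked summit lay within 500 bp in 54 of 59 members (91.5%), against 81.5% of protein-coding genes. The median number of ranked summits there was 2 in members and 1 over all genes. The median of the best −log10 IDR there was 0.377 (quartiles 0.131 and 1.24) in members and 0.319 (0.147 and 1.23) over all genes with one. A best IDR of at most 0.05 was found for 13 of the 59 members, against 19.8% of genes. Of these 13, the 5 that had no listed promoter summit were h, dpp, rho, wg and en. Over the 38 members that had a ranked summit but no main-list one, the best IDR in any zone had a median of 0.199, with 11 at or under 0.05 and 25 over 0.1. No ranked summit in the members' zones passed 0.01 without being in the main list.

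The DNA at the members' summits held more A and T than at unlisted ranked summits, and less than at the main list at large. Within 50 bp of the summit, A and T made up 58.9% ± 11.7 of the bases in members (SD over 37 summits, 34.7 to 78.2%). Over 3248 main-list summits on the 7 chromosome arms the share was 63.5% ± 10.8. At the members' ranked summits outside the main list the mean was 52.7%, and over all such ranked summits it was 53.2%. An A/T run of at least 6 bases was present in 28 of 37 member windows (75.7%), in 87.6% of main-list windows and in 64.4% of unlisted ranked windows. The nkd, tin, hb, bcd, tup and slp2 windows printed above are among those with such a run.

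Short words were searched on both strands of the windows reaching 50 bp to either side of the summit. ACAGTG, or its reverse complement CACTGT, was in 5 of 37 member windows (13.5%), at Abd-B, Antp, fkh, h and the start of ptc. It was in 8.22% of main-list windows and in 4.21% of unlisted ranked windows. The homeodomain core TAATTA was in 4 member windows (10.8%), 8.81% of main-list windows and 4.73% of unlisted ones. GAGAG, read by the GAGA factor, was in 4 (10.8%), against 10.3% and 12.5% in the same order. TTAAAAAA and the Bicoid-type word TAATCC were each in 1 (2.70%), against 5.85% and 3.20% of main-list windows. CAGGTAG, the word of the genome activator Zelda, and CACATG, a Twist-type E-box, were in none of the 37, against 0.369% and 3.76% of main-list windows. A word in a window is a description of the sequence and does not show that a factor bound there.

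Other genes of the same pathways, 142 in all and none a member, carried main-list summits at 24 starts (16.9%) and in 39 bodies (27.5%), and 71 of the 142 had a summit in any zone. Over all protein-coding genes the shares were 14.9% at starts, 6.29% in bodies and 40.1% in any zone. The median length of the pathway genes was 9211.5 bp, against 2164.5 bp over all protein-coding genes. The Wnt pathway kinase gene sgg had a signal of 278 (145 in replicate 1 and 128 in replicate 2), and the corepressor gene gro, which partners Hairy among others, had 269 (123 and 151 in the same order). In the Toll pathway, which controls Dorsal, the kinase gene pll had 152 at a start close to that of TfIIA-L, and the inhibitor gene cact had 115.1. The EGF ligand gene spi had 148, the zinc finger gene bowl, a paralogue of odd, had 273, and Trl, which encodes the GAGA factor, had 191.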

How the data were processed

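Peak lists on the dm6 build were used as deposited by the authors, per the file headers and labels. The authors gave each peak a signal and, in ranked lists, a −log10 global IDR that stops at 5, and the summit position was taken from the deposited offset within the peak, a value in bases. Aligner and peak caller are not given in the sources used here. Replicates were combined by the authors for the main and conservative lists. In each ranked list, 8 columns of per-sample values without a sample label were not used.

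The members, roles, pathway lists and words were chosen with earlier results of these data known. Summits were placed on Ensembl release 115 with Python 3.11.15, NumPy 2.4.6 and pandas 2.3.3, and figures were drawn with Matplotlib 3.10.9. A summit counted for a gene within 500 bp of any start, otherwise inside the gene, otherwise up to 5 kb outside it. Symbols were matched to the annotation, 3 of them by hand through RefSeq synonyms. The assignment was tested on simulated data. Sequences are from the RefSeq dm6 assembly. Every member with a main-list summit was named in full, other pathway genes by up to 3 of the highest promoter signals per list. With 1 group there is no comparison between conditions, and counts were set beside all protein-coding genes with no test. There were 12 alternative settings of list, threshold, zone and assignment.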

Additional observations from a re-analysis of the deposited data

How the results depend on the processing

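The 8 members with a promoter summit became 5 with the IDR limit lowered to 0.001, 4 with a window of 200 bp and 3 to 5 when a replicate was left out and the other's own list was used. The 8 members with a body summit were 3 at the stricter IDR, 5 when each summit counted only for the nearest protein-coding start, and 4 to 5 from a single replicate. The 13 members with a flank summit were 8 with a flank of 2 kb, 26 with 10 kb, 4 by nearest start, 8 with summits near another start left out (chosen after seeing the data) and 7 to 9 from a single replicate. In any zone, the 20 members were 10 to 15 from a single replicate. The 37 summits were 18 at the stricter IDR, 22 by nearest start and 16 to 22 from a single replicate. Shares of all protein-coding genes are not given here for the changed IDR limit, window, flank or nearest-start rule. Member counts under those settings therefore cannot show a change relative to all genes. The median strongest signal of 93.6 was 99.0 in the conservative list and 40.03 to 47.1 in the replicates' rankings, whose values are not on a shared scale. The share of all protein-coding genes with a promoter summit, 14.9%, was 13.1% in the conservative list and 18.3% among genes with a ranked promoter summit. A and T at the members' summits was 58.5% within 100 bp. The conservative list lost bcd and brk near starts, and in any zone lost bcd, dpp and lab and gained Ubx. No paired analysis was possible because there is 1 group and no result comes from a test. Small member counts, the absence of read depths and of an analysed control, and a whole-embryo sample limit what the counts can show.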

Other observations

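The pathway genes that are not members differed from list to list in how many carried main-list summits near a start and in any zone, and no list was tested. For the maternal anterior-posterior genes it was 4 of 9 near a start and 9 of 9 in any zone, with stau, pum and nos at signals of 60.4, 60.3 and 59.2. None of these named peaks was in a replicate's own list, and the nos summit was also within 500 bp of a start of CG11779. EGF receptor pathway genes had 3 of 7 near a start (spi, pnt and aos) and 5 in any zone. BMP pathway genes had 2 of 13 (shn and Ance) and 10 in any zone, Wnt pathway genes 3 of 17 and 10, and FGF and Netrin genes 1 of 8 and 6. Toll pathway genes had 2 of 12 and 4, Hedgehog pathway genes 2 of 11 (dlp and dally) and 4, and Torso pathway genes 2 of 11 (gro and cic) and 5. Zygotic genome activation genes had 1 of 6 and 3, pair-rule partners and paralogues 1 of 8 and 4, dorsal ectoderm and amnioserosa genes 1 of 4 (ush) and 1, and endoderm genes 2 of 5 (cnc and Hnf4) and 3. The dlp summit was also within 500 bp of a start of RecQ5, and the ush summit within 500 bp of one of lncRNA:CR46258. Mesoderm and muscle genes had 0 of 15 near a start and 6 in any zone, head gap genes and Hox cofactors 0 of 10 and 1, and neural ectoderm genes 0 of 7 and 0. Beside these counts stand 14.9% near a start and 40.1% in any zone over all protein-coding genes.

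Inside the bithorax complex, 2 of the 4 main-list summits lay in no zone of a Hox gene. The stronger, at position 16798891 of 3R with a signal of 114, was listed in both replicates, and the other, at 16869420 with a signal of 65.4, in neither. The nearest start of the stronger one belonged to a long non-coding RNA gene, lncRNA:CR45750, 1709 bp away, and the nearest of the weaker one to mir-iab-8.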
